A study of Homo sapiens with 61 samples.

Results

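The siglecs are cell-surface receptors of the immunoglobulin superfamily that bind sialic acid sugars, and most of the human family is encoded in 1 cluster on the long arm of chromosome 19. The genes described here are 9 listed members of the CD33-related branch, SIGLEC5, SIGLEC6, SIGLEC7, SIGLEC8, SIGLEC9, SIGLEC10, SIGLEC11, SIGLEC12 and SIGLEC14, out of 19970 protein-coding genes for which a start site was taken. They were selected on H3K4me3 values measured in these same libraries, so all their H3K4me3 values below are a description and carry no test. Trimethylation of lysine 4 on histone H3 (H3K4me3) is a mark that sits over the start sites of active and poised genes.

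Chromatin immunoprecipitation sequencing was performed with antibodies against H3K4me3 and against XPC, the sensor protein that finds damaged DNA in global-genome nucleotide excision repair. All cells were U2OS, a line from an osteosarcoma, a bone tumour. The ASH1L-/- cells had been made by CRISPR/Cas9 deletions in the gene of the histone methyltransferase ASH1L and came from isolated colonies, so a genotype difference is a difference between that derived line and the parental wild-type (WT) cells and cannot be told apart from other differences between them. Cells of each genotype were left without UV, or irradiated with 20 J/m2 of UV-C and collected 1 h or 3 h later. ASH1L-/- and WT cells gave 3 H3K4me3 libraries per time, 18 peak lists in all, and 3 XPC libraries per time, except for 4 in WT cells without UV, 19 lists in all. The values are peak lists, so a promoter is described by its covered length, the number of bases under called peaks in the 4 kb around its start site.

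Siglecs mostly act in leukocytes, where they recognise sialic acids on the body's own cells. The inhibitory members carry tyrosine motifs in their cytoplasmic tails that recruit phosphatases, whereas SIGLEC14 signals through the adaptor TYROBP and activates. A bone tumour line is not a cell type in which these receptors are known to work.

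On chromosome 19 (hg38), 8 of the 9 genes lay in a span of 522 kb from base 51124906 to base 51646825, in the order SIGLEC9, SIGLEC7, SIGLEC10, SIGLEC8, SIGLEC12, SIGLEC6, SIGLEC5 and SIGLEC14. SIGLEC9 and SIGLEC7 are transcribed from the plus strand and the others from the minus strand. SIGLEC11 lay 1.16 Mb before the span, at bases 49948985 to 49961172, and was treated by itself. The span also held the start sites of 12 other protein-coding genes, among them the related receptor genes CD33 and SIGLECL1.

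The promoters are printed because of what they share, a low number of CpG dinucleotides, and because SIGLEC12 and SIGLEC6 carried most of the H3K4me3 described below, whereas SIGLEC9 carried none. ZNF175, a zinc finger gene between SIGLEC6 and SIGLEC5 whose promoter was covered in every library, is printed for contrast. Each sequence holds the 250 bases before the start site, 5′ to 3′ in the direction of transcription, with CpG dinucleotides in capitals. They were taken from RefSeq (GRCh38.p14) and match the genome sequence used here. SIGLEC12 is at chr19:51501801-51502050 (minus strand), SIGLEC6 at chr19:51531671-51531920 (minus strand), SIGLEC9 at chr19:51124656-51124905 (plus strand) and ZNF175 at chr19:51571033-51571282 (plus strand).
SIGLEC12: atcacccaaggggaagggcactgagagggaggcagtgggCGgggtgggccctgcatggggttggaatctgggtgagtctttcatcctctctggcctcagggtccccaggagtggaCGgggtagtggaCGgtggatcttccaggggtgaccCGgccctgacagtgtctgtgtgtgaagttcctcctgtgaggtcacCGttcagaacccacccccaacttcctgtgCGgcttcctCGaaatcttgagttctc
SIGLEC6: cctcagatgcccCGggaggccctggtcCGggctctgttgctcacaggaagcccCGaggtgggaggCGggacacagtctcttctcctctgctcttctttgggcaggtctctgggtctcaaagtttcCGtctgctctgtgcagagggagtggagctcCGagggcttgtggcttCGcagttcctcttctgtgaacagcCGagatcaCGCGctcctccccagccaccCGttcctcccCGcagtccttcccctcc
SIGLEC9: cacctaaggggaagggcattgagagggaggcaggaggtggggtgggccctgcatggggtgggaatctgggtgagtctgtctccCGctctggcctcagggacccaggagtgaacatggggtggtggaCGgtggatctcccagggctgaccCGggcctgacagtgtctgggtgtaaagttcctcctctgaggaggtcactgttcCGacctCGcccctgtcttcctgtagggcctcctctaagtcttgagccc
ZNF175: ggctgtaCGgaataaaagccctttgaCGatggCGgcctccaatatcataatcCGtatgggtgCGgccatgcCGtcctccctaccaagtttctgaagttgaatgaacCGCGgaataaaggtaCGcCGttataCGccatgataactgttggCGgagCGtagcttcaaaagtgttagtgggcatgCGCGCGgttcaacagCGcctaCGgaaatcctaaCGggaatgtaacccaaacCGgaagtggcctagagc
These stretches hold 7 CpG in SIGLEC12, 12 in SIGLEC6 and 5 in SIGLEC9, against 20 in ZNF175.

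A RefSeq promoter window of 300 bases was matched for all 9 members. The members had a median of 9 CpG per window (5 to 13), against a median of 23 over 15310 promoters. Their content of C and G was similar to that of other promoters, with a median of 61% against 63.7%. Over the whole 4 kb window the observed over expected CpG ratio had a median of 0.255 in the members (0.220 to 0.331), against 0.513 over all 19970 promoters. The letters GAGGAA, the core of the site of the myeloid factor PU.1, were found on either strand in 5 of 9 members (SIGLEC6, SIGLEC7, SIGLEC8, SIGLEC9 and SIGLEC12), against 27.4% of all promoters. The letters TATAAA were in 0 of 9 members, against 9.43% of all promoters. Such matches only describe the letters of the window.

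Some of these promoters are near-copies of each other. The windows of SIGLEC5 and SIGLEC14, the inhibitory and the activating partner of a matched receptor couple, were 88.1% identical. SIGLEC9 was 83.99% identical to SIGLEC8 and 83.9% to SIGLEC12, and SIGLEC8 was 80.3% identical to SIGLEC12. Copies matter for reads of 100 bases, since reads of low mapping quality were removed by the authors. Of all stretches of 100 bases in the 4 kb window, 22.9% recurred on chromosome 19 for SIGLEC5 and for SIGLEC14 and 33.1% for SIGLEC11. The share was 0% for SIGLEC6, SIGLEC8 and SIGLEC9 and at most 2.82% for the others. A missing peak at SIGLEC5, SIGLEC14 or SIGLEC11 is therefore less certain than at SIGLEC6.

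The H3K4me3 lists held 72984 to 142688 peaks that covered 70.1 to 132 Mb. Covered totals ran from 79.4 to 108 Mb in irradiated and 74.3 to 91.7 Mb in unirradiated ASH1L-/- libraries, and from 97.2 to 132 Mb in irradiated and 70.1 to 93.3 Mb in unirradiated WT libraries. Depth differed as well, as read from the background of 2.57 to 4.40 fragments per base that the peak caller had used. Markers bore out the label of the line: 8 of 10 mesenchymal and osteoblast markers had a peak at their promoter (not COL1A2 and TWIST1) and their summed covered length was 21.7 to 24.8 kb in ASH1L-/- and 22.03 to 24.88 kb in WT libraries. Of 12 leukocyte markers, 10 had no promoter peak in any library, among them PTPRC (CD45), SPI1 (PU.1) and CD14, and the 2 with peaks were CD68 and NCAM1, with a summed length of 2.65 to 4.07 kb in ASH1L-/- and 2.48 to 4.06 kb in WT libraries.

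H3K4me3 was found at 6 of the 9 siglec promoters and was extensive at only SIGLEC6 and SIGLEC12. After UV both gained covered length in WT cells and lost it in ASH1L-/- cells. At SIGLEC6 the irradiated libraries averaged 0.541 ± 0.441 kb in ASH1L-/- cells (SD, n = 6) against 1.20 ± 0.140 kb without UV (n = 3), and 2.19 ± 0.264 kb in WT cells (n = 6) against 0.568 ± 0.123 kb without UV (n = 3). Both genes lie side by side, 16.02 kb apart, on the same strand.

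SIGLEC6 encodes a receptor found on mast cells, B cells and placental trophoblast. In ASH1L-/- cells 1.13, 1.12 and 1.36 kb of its promoter were covered without UV, 0.766, 1.054 and 0.621 kb at 1 h, and 0.803, 0 and 0 kb at 3 h. All 6 irradiated libraries lay below the 3 unirradiated ones. In WT cells 0.609, 0.430 and 0.666 kb were covered without UV, 2.15, 1.76 and 2.32 kb at 1 h, and 2.141, 2.196 and 2.567 kb at 3 h. Here all 6 irradiated libraries lay above the 3 unirradiated ones. The change after UV was -0.66 ± 0.17 kb in ASH1L-/- cells and 1.62 ± 0.17 kb in WT cells (SE of the fit over all promoters), which differ by -2.28 ± 0.25 kb. Without UV the order of the genotypes was the opposite of that after UV, with every ASH1L-/- library above every WT library.

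SIGLEC12 encodes a receptor whose human form has lost the arginine that binds sialic acid. Its promoter was covered over 1.32, 0.899 and 1.60 kb in ASH1L-/- cells without UV, 0.316, 0.294 and 0.785 kb at 1 h, and 0.761, 0 and 0.375 kb at 3 h. No irradiated library reached the lowest unirradiated one. In WT cells the values were 0.358, 0.619 and 1.34 kb without UV, 1.47, 1.32 and 2.58 kb at 1 h, and 2.295, 1.829 and 2.233 kb at 3 h. The WT groups overlapped, because the third unirradiated library (1.34 kb) lay above the second library at 1 h (1.32 kb). The change after UV was -0.85 ± 0.28 kb in ASH1L-/- and 1.18 ± 0.28 kb in WT cells, a difference of -2.03 ± 0.39 kb.

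**Figure D1:**
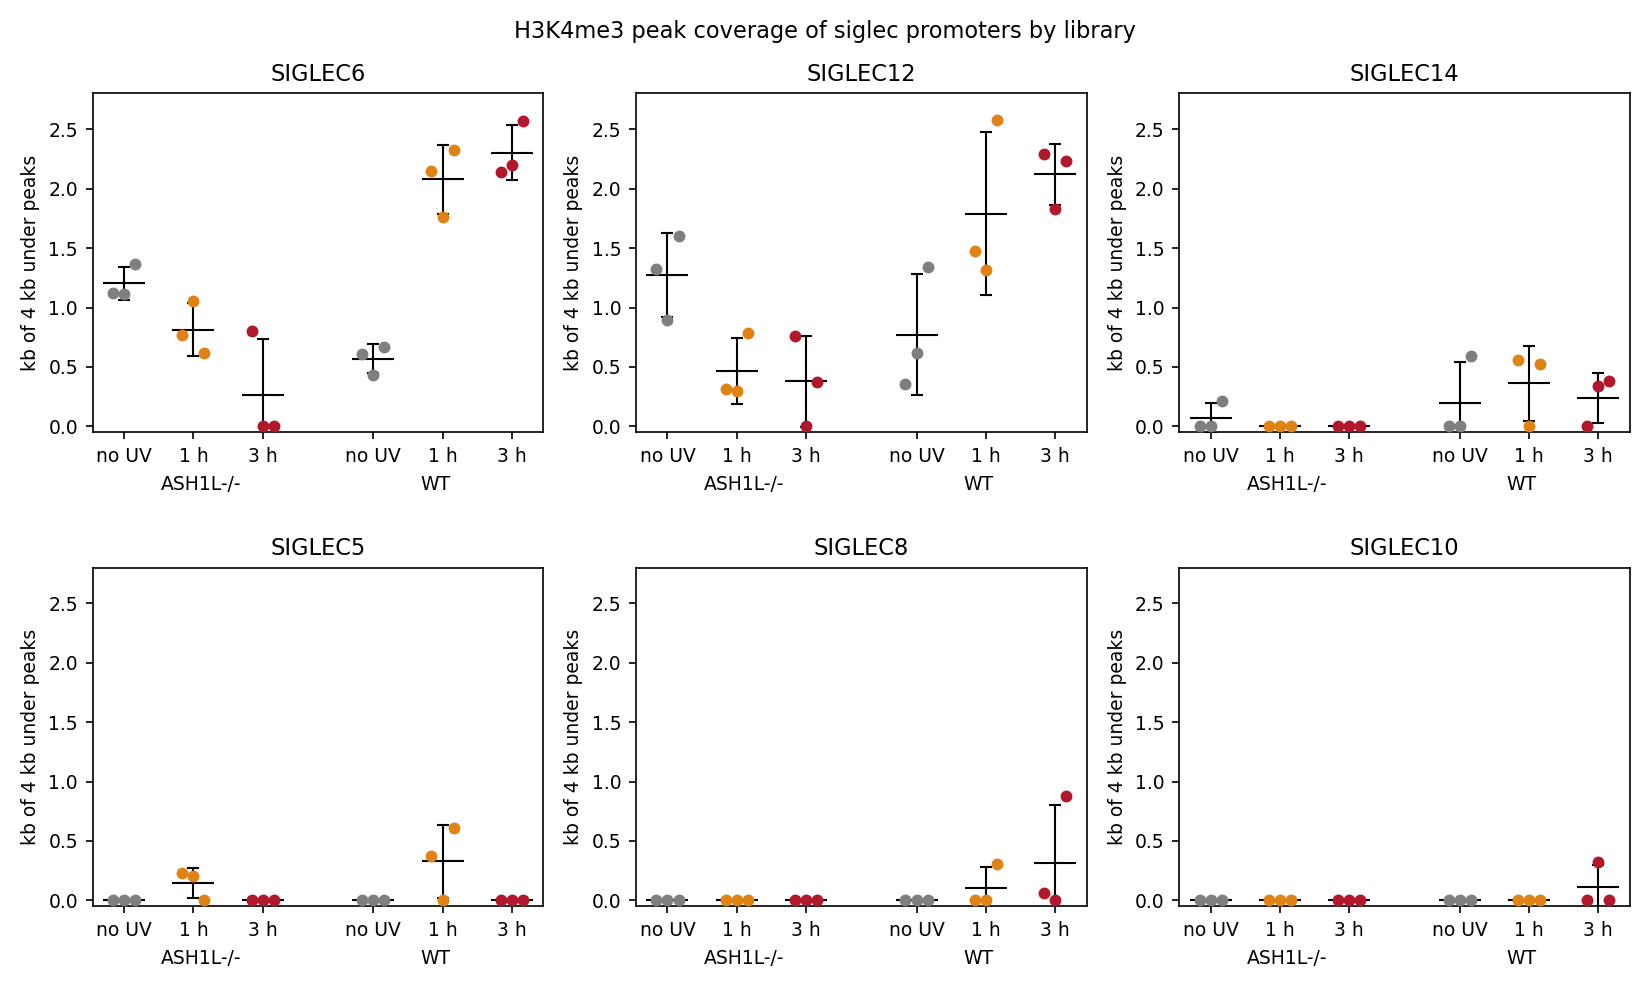
Covered length of the 4 kb promoter window (y axis, kb under H3K4me3 peaks) of the 6 siglec genes that had any promoter peak, by time in ASH1L-/- cells and in WT cells (x axis). Points are libraries, and the bar and whiskers are the mean and SD (n = 3); SIGLEC6 in WT cells lies at 1.76 to 2.57 kb after UV and at 0.430 to 0.666 kb without UV.

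The other members had little or nothing. SIGLEC14 had a peak in 1 of 3 unirradiated and 0 of 6 irradiated ASH1L-/- libraries, and in 1 of 3 unirradiated and 4 of 6 irradiated WT libraries, with at most 0.592 kb covered. Its inhibitory counterpart SIGLEC5 was covered at 1 h alone, over 0.232 and 0.205 kb in 2 ASH1L-/- libraries and 0.373 and 0.613 kb in 2 WT libraries. SIGLEC8, a receptor of eosinophils and mast cells, had 0 kb in all 9 ASH1L-/- libraries and 0.308, 0.062 and 0.874 kb in 3 of the 6 irradiated WT libraries. For these 3 genes no group stood apart from another. SIGLEC10, a receptor of B cells, had 0.326 kb in 1 WT library at 3 h and no peak elsewhere. SIGLEC7 of natural killer cells, SIGLEC9 of neutrophils and monocytes, and SIGLEC11 of tissue macrophages and microglia had no promoter peak in any of the 18 libraries.

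A strong site lay just outside the SIGLEC8 window, and was looked at after its values were seen. It ran from base 51460372 to base 51461114 of chromosome 19, about 2.3 kb before the start site, and had a peak in all 18 libraries. Its fold enrichment was 4.56 to 5.64 in the 6 irradiated and 4.45 to 4.95 in the 3 unirradiated ASH1L-/- libraries, against 5.88 to 10.4 in the 6 irradiated and 3.71 to 5.10 in the 3 unirradiated WT libraries. Its edge reached into the SIGLEC8 window in WT libraries 1 and 3 at 3 h, which is where the 0.062 kb and a part of the 0.874 kb come from.

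The number of members that changed was set against all promoters. A promoter was kept where at least 3 of the 18 libraries had a peak in it, which 14745 promoters and 5 of the 9 members passed (SIGLEC5, SIGLEC6, SIGLEC8, SIGLEC12 and SIGLEC14). All 6 irradiated WT libraries lay above all 3 unirradiated ones at 22.2% of promoters, SIGLEC6 among them. All 6 irradiated ASH1L-/- libraries lay below the 3 unirradiated ones at 0.217% of promoters, among them SIGLEC6 and SIGLEC12. Both held at 8 promoters (0.0543%), 1 of which was SIGLEC6. Irradiated ASH1L-/- libraries all lay below irradiated WT libraries at 2.69% of promoters, SIGLEC6 and SIGLEC12 included, and unirradiated ASH1L-/- libraries all lay above unirradiated WT libraries at 11.3%, with SIGLEC6 among them. Because the members were chosen with these values known, no more is read from these counts.

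In the limma fit with Benjamini-Hochberg adjustment over all promoters, UV raised the covered length at 30.5% of promoters in WT cells, with a median change of 0.20 kb over all promoters. In ASH1L-/- cells it raised 24.0%, with a median change of 0.17 kb, and lowered 0.258%. These splits depend on the covered totals. As deposited, 3537 promoters rose and 38 fell in ASH1L-/- cells and 4493 rose and 4 fell in WT cells. After every library had been scaled to the same covered total, 107 rose and 40 fell in ASH1L-/- cells, with a median change of -0.14 kb, and 390 rose and 7709 fell in WT cells, with a median of -0.61 kb. The change was lower in ASH1L-/- than in WT cells at 0.861% of promoters, and the covered length was lower in ASH1L-/- than in WT cells at 1.83% of promoters at 1 h and 7.36% at 3 h. No calls of this fit are given for the siglec members. With scaled lengths the members' changes after UV kept their signs, at -0.87 kb in ASH1L-/- and 1.18 kb in WT cells for SIGLEC6 and at -1.06 kb in ASH1L-/- and 0.76 kb in WT cells for SIGLEC12. With an equal number of peaks per library the loss of SIGLEC6 in ASH1L-/- cells shrank to -0.14 kb.

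**Figure D2:**
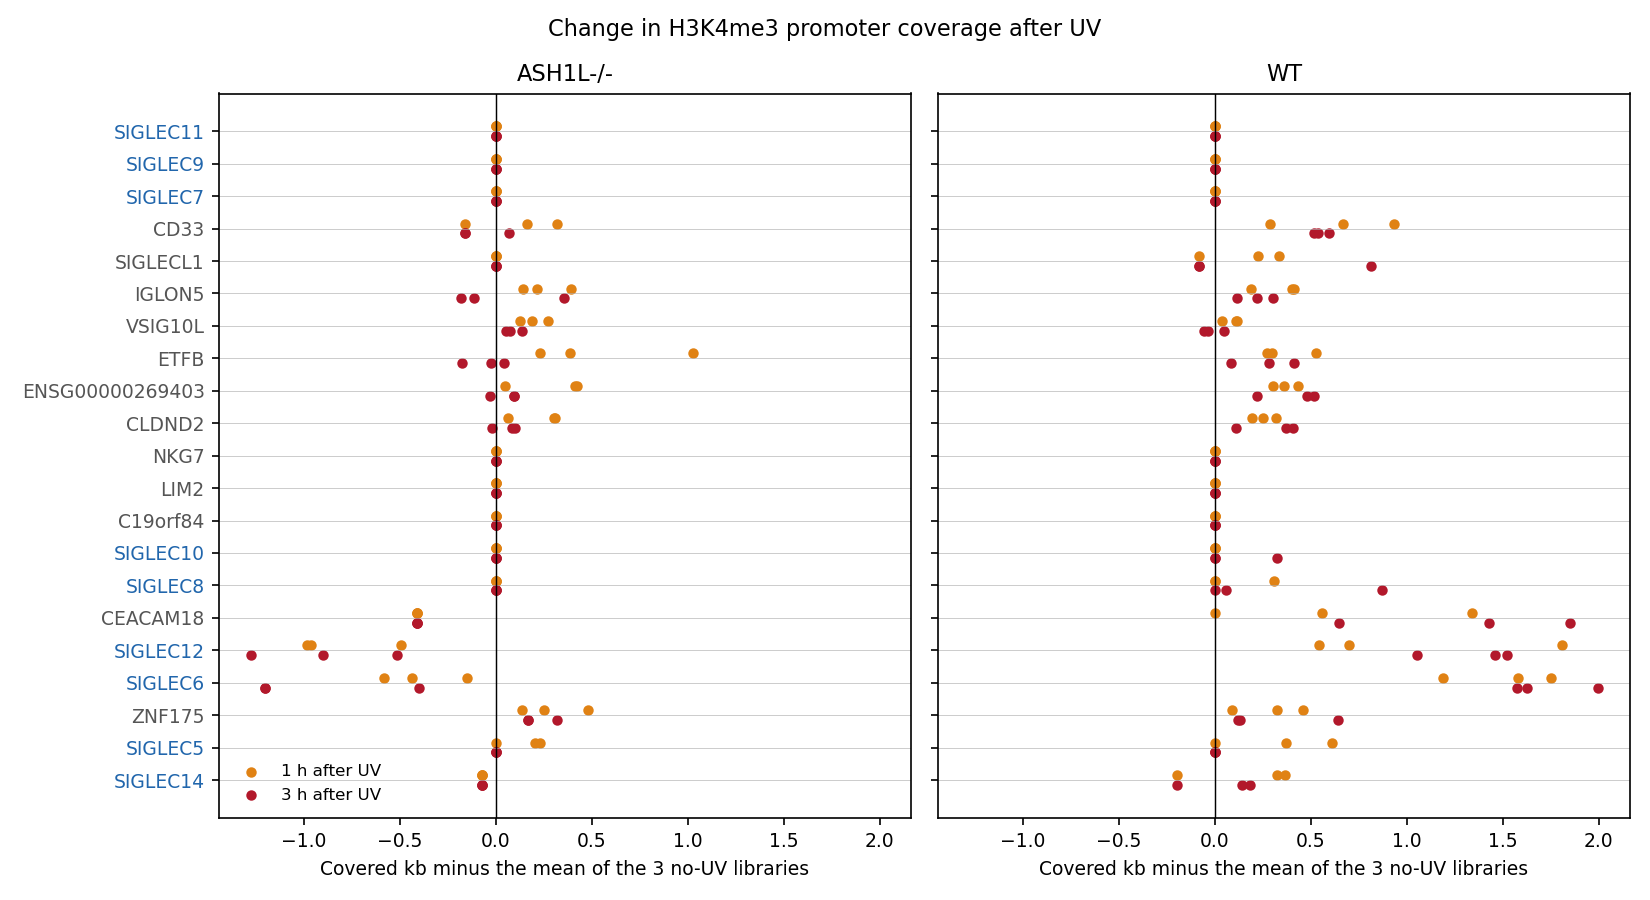
Change in promoter covered length after UV for SIGLEC11 and the 20 genes with a start site in the span, in chromosomal order from top to bottom (siglec members in blue, others in grey), in ASH1L-/- cells (left) and WT cells (right). Each point is 1 irradiated library minus the mean of the 3 unirradiated libraries (x axis, kb); SIGLEC12, SIGLEC6, CEACAM18 and, by 0.071 kb, SIGLEC14 lie below 0 in all 6 irradiated ASH1L-/- libraries.

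The peaks behind these values were weak. The 106 peaks in the members' windows had a median width of 408 bases and a median fold enrichment of 2.84 over the control, and 4 reached 5-fold. Those of 10.4- and 8.43-fold belonged to the site before SIGLEC8, with summits outside its window. Those of 5.11- and 5.62-fold were at SIGLEC6 in WT cells at 3 h. Over all covered promoters, the median fold enrichment of the strongest peak was 5.83 to 15.0, depending on the library. That is a value of the strongest peak alone, unlike the median over all member peaks. Where a peak was called, the strongest peak of a library was 2.17- to 5.62-fold at SIGLEC6 and 2.46- to 4.08-fold at SIGLEC12. At SIGLEC6 the median over peaks was 2.94-fold in irradiated and 2.78-fold in unirradiated ASH1L-/- libraries, and 3.91-fold in irradiated and 2.57-fold in unirradiated WT libraries. At SIGLEC12 it was 2.73-fold in irradiated and 3.04-fold in unirradiated ASH1L-/- libraries, and 2.83-fold in irradiated and 2.46-fold in unirradiated WT libraries. With peaks of at least 5-fold enrichment alone, SIGLEC12 had none in any group, and the change after UV at SIGLEC6 shrank to 0 kb in ASH1L-/- cells and 0.24 kb in WT cells.

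Fragment numbers under the summits were recovered from the paired fold enrichment and p of each peak. At SIGLEC6 the strongest peak of each ASH1L-/- library held 25, 13 and 25 fragments without UV, 34, 32 and 14 at 1 h, and 32 in the 1 library with a peak at 3 h. In WT libraries it held 12, 12 and 15 fragments without UV, 19, 17 and 22 at 1 h, and 26, 16 and 29 at 3 h. Among irradiated ASH1L-/- libraries with a SIGLEC6 peak, these summits were no lower in fragments than those in irradiated WT libraries, apart from the third at 1 h. Less of the window was covered in them. The ASH1L-/- libraries without a peak at 3 h have no summit and are left out of this comparison, so it does not describe all irradiated ASH1L-/- libraries. The strongest peaks also lay at different places, so their values mix genotype with position. In irradiated WT libraries their summits lay 743 to 1640 bases into the gene, except in the first at 3 h (36 bases). In irradiated ASH1L-/- libraries with a peak they lay closer to the start site. The control level under these strongest peaks differed. It was 6.58, 3.99 and 7.03 fragments without UV, 10.5, 7.60 and 4.10 at 1 h, and 13.8 at 3 h in ASH1L-/- libraries. In WT libraries it was 5.00, 4.02 and 3.20 fragments without UV, 3.65, 3.61 and 4.86 at 1 h, and 4.28, 2.57 and 4.34 at 3 h. Under the SIGLEC6 peak nearest the start site, the ASH1L-/- control was 6.58, 9.94 and 7.03 without UV, 10.5, 7.60 and 9.08 at 1 h, and 13.8 at 3 h. The WT control there was 5.00, 4.02 and 3.20 without UV, 5.90, 5.48 and 6.07 at 1 h, and 4.28, 2.57 and 4.60 at 3 h. The second unirradiated WT library had only a peak 1780 bases into the gene. At SIGLEC12 the control level under the strongest peak was 3.34 to 5.07 in the 5 irradiated ASH1L-/- libraries with a peak, against 2.57 to 6.68 in irradiated WT libraries, so these ranges overlapped.

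Over the whole span a similar shift was seen in the control. The mean control level under the peaks, divided by the background of the library, was 1.617, 1.568 and 1.501 in ASH1L-/- libraries without UV, 1.755, 1.595 and 1.786 at 1 h, and 2.05, 2.21 and 2.16 at 3 h. In WT libraries it was 1.38, 1.38 and 1.32 without UV, 1.372, 1.296 and 1.319 at 1 h, and 1.268, 1.304 and 1.197 at 3 h. Every ASH1L-/- library lay above every WT library, and those at 3 h lay highest. Over all peaks of the genome the ratio was 1.64 to 2.15 in ASH1L-/- and 1.52 to 1.68 in WT libraries. A higher control raises the number of fragments that a base needs to be called, and its part in the lower covered length of irradiated ASH1L-/- cells was not tested.

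**Figure D3:**
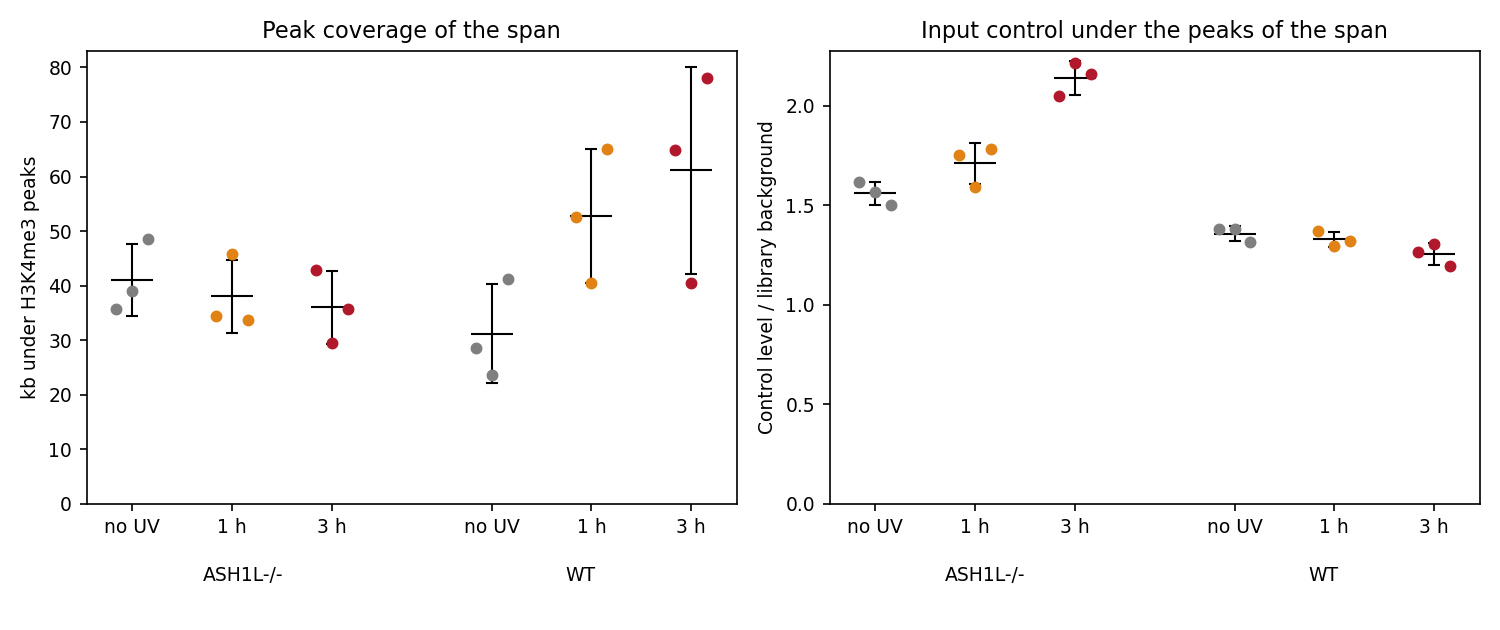
Left, covered length of the siglec span (y axis, kb under H3K4me3 peaks); right, mean control level under the peaks of the span divided by the library's background (y axis, ratio), by time in ASH1L-/- and in WT cells. Points are libraries, with mean and SD (n = 3); the control ratio is 2.05 to 2.21 in ASH1L-/- cells at 3 h and at most 1.38 in WT cells.

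Across the span the H3K4me3 covered length in ASH1L-/- cells was 35.8, 39.0 and 48.5 kb without UV, 34.5, 45.8 and 33.7 kb at 1 h, and 42.9, 29.5 and 35.7 kb at 3 h. Irradiated and unirradiated ASH1L-/- libraries overlapped, with means of 37.0 ± 6.12 kb (SD, n = 6) and 41.1 ± 6.601 kb (n = 3). In WT cells it was 28.5, 23.7 and 41.3 kb without UV, 52.6, 40.5 and 65.1 kb at 1 h, and 64.9, 40.6 and 78.0 kb at 3 h. The WT means were 56.9 ± 15.0 kb after UV (n = 6) and 31.2 ± 9.08 kb without UV (n = 3), and the groups overlapped narrowly at 40.5 against 41.3 kb. The irradiated over unirradiated ratio was 0.901 in ASH1L-/- and 1.83 in WT cells, where the median over 5680 bins of 500 kb was 1.21 in ASH1L-/- and 1.38 in WT cells. The change in ASH1L-/- cells, -4.07 kb, was -0.37 kb without the third unirradiated library and -6.72 kb without the first, so its size is not settled by these libraries.

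Because irradiated WT libraries covered more of the genome, the span was also expressed per covered Mb. In ASH1L-/- cells 347 to 434 bases per covered Mb lay in the span after UV, against 442 to 529 without UV, so that the groups did not overlap. The same held for 5.26% of the 500 kb bins of the genome. In WT cells the values were 399 to 589 bases per covered Mb after UV and 308 to 442 without UV, which overlapped. SIGLEC11, outside the span, had no H3K4me3 peak anywhere in its gene body.

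The change was uneven along the span. From the SIGLEC7 end to the SIGLEC10 gene, 256 kb that hold CD33, SIGLECL1, ETFB and other genes, the covered length was 14.5 ± 1.97 kb after UV and 13.3 ± 1.497 kb without UV in ASH1L-/- cells, and 19.3 ± 3.89 kb after UV and 12.0 ± 2.86 kb without UV in WT cells (SD, n = 6 and 3). From SIGLEC8 to SIGLEC12 (32.8 kb) it was 1.07 ± 0.326 against 2.53 ± 0.637 kb in ASH1L-/- cells and 4.05 ± 1.86 against 1.63 ± 0.839 kb in WT cells, again after UV against without. Between SIGLEC12 and SIGLEC6 it was 0.886 ± 0.631 against 2.31 ± 0.826 kb in ASH1L-/- cells and 3.46 ± 1.09 against 1.27 ± 1.47 kb in WT cells. From SIGLEC8 to SIGLEC12 and between SIGLEC12 and SIGLEC6 the ASH1L-/- libraries after UV all lay below those without UV. From SIGLEC7 to SIGLEC10 they overlapped. The share of stretches of like length in the genome with such a separation was not computed, so no more is read from it. The gene body of SIGLEC6 followed its promoter, with 0.831 ± 0.437 kb after UV against 1.60 ± 0.532 kb without in ASH1L-/- cells and 3.80 ± 1.07 kb against 1.25 ± 0.392 kb in WT cells. From SIGLEC6 to SIGLEC5, 79.1 kb that hold ZNF175, the values were 14.4 ± 2.33 against 15.3 ± 1.96 kb in ASH1L-/- cells and 17.5 ± 4.30 against 10.4 ± 2.25 kb in WT cells.

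**Figure D4:**
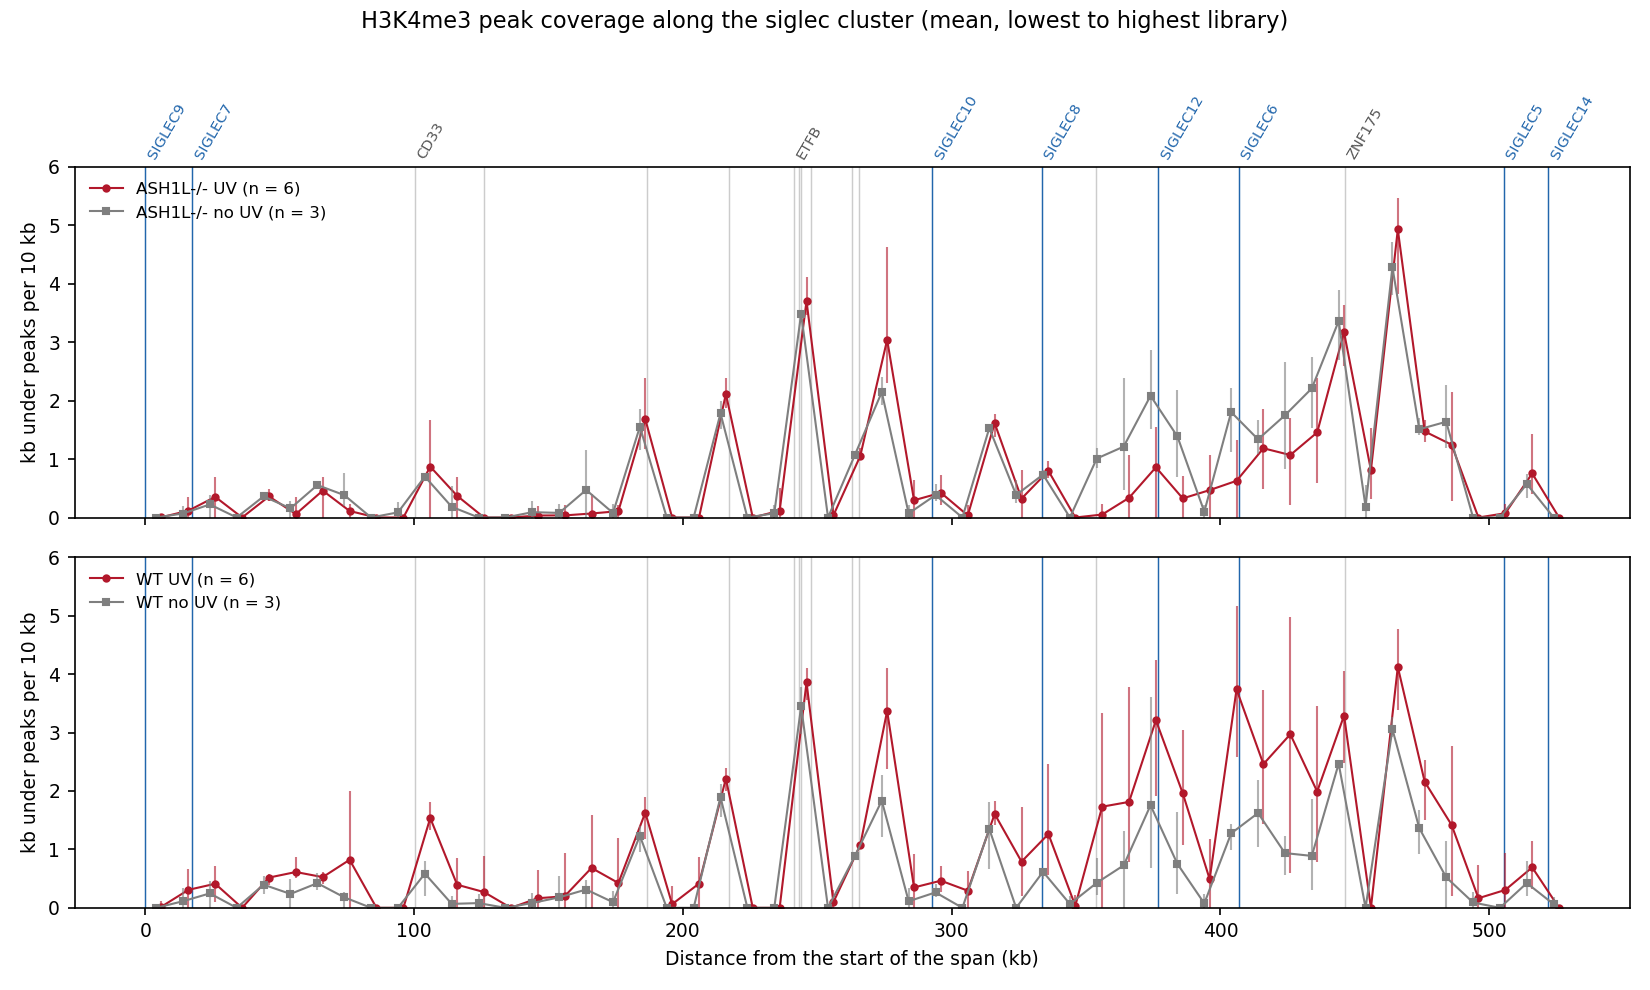
H3K4me3 covered length per 10 kb (y axis) against distance from the start of the span (x axis, kb) in ASH1L-/- cells (top) and WT cells (bottom). Red circles are means of the 6 irradiated and grey squares of the 3 unirradiated libraries, with lines from the lowest to the highest library; blue vertical lines are start sites of siglec members and grey ones those of other genes, and the curves part most around SIGLEC12 and SIGLEC6.

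Of the neighbours, CEACAM18, which encodes a member of the carcinoembryonic antigen family of adhesion molecules and ends within SIGLEC12, had the pattern of SIGLEC12. It was covered in 0 of 6 irradiated and in 3 of 3 unirradiated ASH1L-/- libraries (0.352 to 0.499 kb), against 5 of 6 irradiated (0.971 ± 0.683 kb) and 0 of 3 unirradiated WT libraries. CD33, a receptor of myeloid cells that gave this branch its name, had 0.172 ± 0.205 kb after UV and 0.16 ± 0.146 kb without UV in ASH1L-/- cells, and 0.940 ± 0.211 kb after UV and 0.349 ± 0.165 kb without UV in WT cells. SIGLECL1 had no peak in ASH1L-/- libraries and was covered in 3 of 6 irradiated and 1 of 3 unirradiated WT libraries. Among the promoters covered in every library, the means of ETFB and ZNF175 were higher after UV in both genotypes. ETFB, a subunit of a mitochondrial electron carrier, had 3.20 ± 0.429 after UV and 2.95 ± 0.107 kb without UV in ASH1L-/- cells, and 3.21 ± 0.149 after UV and 2.90 ± 0.295 kb without UV in WT cells. ZNF175 had 2.68 ± 0.129 against 2.42 ± 0.298 kb in ASH1L-/- cells and 2.64 ± 0.221 against 2.35 ± 0.199 kb in WT cells. IGLON5, VSIG10L, CLDND2 and ENSG00000269403 were likewise covered in all 18 libraries, whereas NKG7, LIM2 and C19orf84 had no peak.

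Across the 18 libraries, SIGLEC6 and SIGLEC12 varied together (Pearson r = 0.88). Their r with the total covered length of the library was 0.68 for SIGLEC6 and 0.70 for SIGLEC12, and that of the span was 0.89, so the amount called is shared by these points. That total also varied with genotype and UV, and an r with depth is not given. Outside the span, the promoters most like the mean of the members were NPAP1 on chromosome 15 (r = 0.92), C10orf71 on chromosome 10 (0.91), KRTAP12-4 on chromosome 21 (0.90), GAB4 on chromosome 22 (0.89) and WDFY4 on chromosome 10 (0.89). C10orf71, for example, averaged 0 kb after UV against 0.914 kb without UV in ASH1L-/- cells, and 2.35 kb after UV against 0.739 kb without UV in WT cells. Nothing about a shared function is read from this likeness.

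Genes around the siglecs in function were taken from lists of 89 genes, of which 55 had promoters that could be tested. The lists were chosen with earlier results of these data known, so the adjusted p-values of their genes are not independent evidence. UV raised 11 of them in ASH1L-/- cells (20.0%) and 17 in WT cells (30.9%), and lowered none in either, beside 24.0% of all promoters in ASH1L-/- and 30.5% in WT cells. Of the 7 siglec genes outside the members, 5 had no promoter peak and 2 were tested. Both of these, CD33 and SIGLECL1, lie in the span whose H3K4me3 coverage was part of the choice, so they are described with no test, and CD33 is 1 of the 17 counted above. CD33 changed after UV by 0.01 ± 0.13 kb in ASH1L-/- and 0.59 ± 0.13 kb in WT cells (SE), and ASH1L-/- minus WT was -0.71 ± 0.15 kb at 1 h and -0.82 ± 0.15 kb at 3 h.

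The next lists hold enzymes that make and attach sialic acid, the ligand of these receptors. Of 6 genes of sialic acid synthesis, all tested, 3 rose in ASH1L-/- and 2 in WT cells. They were GNE, the first enzyme of the pathway (0.38 ± 0.07 kb in ASH1L-/-, adjusted p = 0.0030, and 0.30 ± 0.07 kb in WT cells, adjusted p = 0.0079; limma), NANS, the sialic acid synthase (0.32 ± 0.10 kb, adjusted p = 0.034, and 0.51 ± 0.10 kb, adjusted p = 0.0038, turning to -0.34 kb in WT cells with scaled lengths), and in ASH1L-/- cells the lysosomal exporter SLC17A5 (0.38 ± 0.11 kb, adjusted p = 0.024). Of 20 sialyltransferases 17 were tested, and 4 rose in ASH1L-/- and 8 in WT cells. The largest rises in WT cells were those of ST8SIA3 (0.68 ± 0.14 kb, limma adjusted p = 0.0052), ST6GALNAC4 (0.62 ± 0.13 kb, adjusted p = 0.0056) and ST8SIA5 (0.55 ± 0.15 kb, adjusted p = 0.017), and in ASH1L-/- cells those of ST6GALNAC3 (0.46 ± 0.15 kb, adjusted p = 0.034), ST8SIA2 (0.40 ± 0.14 kb, adjusted p = 0.046) and ST3GAL5 (0.21 ± 0.07 kb, adjusted p = 0.045). The median change over the 17 was 0.16 kb in ASH1L-/- and 0.24 kb in WT cells, beside 0.17 and 0.20 kb over all promoters of the same genotype.

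Of 4 sialidases, which remove sialic acid, 2 were tested. NEU3 of the plasma membrane rose in ASH1L-/- cells (0.46 ± 0.16 kb, limma adjusted p = 0.047) and the lysosomal NEU1 in WT cells (0.82 ± 0.16 kb, adjusted p = 0.0032, turning to -0.18 kb with scaled lengths). Of 7 signalling partners of siglecs 5 were tested. PTPN11, a phosphatase recruited by inhibitory siglecs, rose in ASH1L-/- cells (0.34 ± 0.11 kb, limma adjusted p = 0.030), and none rose in WT cells. SYK, a kinase used by activating receptors, was lower in ASH1L-/- than in WT cells without UV by -0.49 ± 0.13 kb (adjusted p = 0.045), a call that was lost under 17 of 24 alternatives.

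The leukocyte receptor complex, a neighbouring cluster of immunoglobulin-like receptors on the same chromosome arm, had 13 of 23 genes tested. None rose in ASH1L-/- cells and 2 rose in WT cells, the platelet collagen receptor GP6 (0.89 ± 0.28 kb, limma adjusted p = 0.030) and the killer cell receptor KIR2DL3 (0.42 ± 0.15 kb, adjusted p = 0.046). The median change over the 13 was -0.16 kb in ASH1L-/- and 0.26 kb in WT cells. GP6 was lower in ASH1L-/- than in WT cells by -1.48 ± 0.33 kb at 1 h (adjusted p = 0.017) and -1.50 ± 0.33 kb at 3 h (adjusted p = 0.0081), and KIR2DL3 by -0.68 ± 0.17 kb at 1 h (adjusted p = 0.036). The GP6 calls were lost under 6 of 25 alternatives each for the rise in WT cells and for the genotype difference at 1 h, and under 2 of 25 for that at 3 h. The KIR genes are near-copies of each other, so the values of KIR2DL3 are uncertain. Among the leukocyte markers CD68, also expressed outside leukocytes, rose in WT cells (0.65 ± 0.23 kb, adjusted p = 0.044), a call that was lost under 13 of 25 alternatives. Among the mesenchymal and osteoblast markers, CDH11 rose in ASH1L-/- cells by 1.42 ± 0.18 kb (adjusted p = 0.00041) and was lower there than in WT cells without UV by -1.53 ± 0.21 kb (adjusted p = 0.00076). In WT cells its window of 4 kb was nearly full already, with 4.001 kb in all 3 libraries at 1 h and 3.73 ± 0.297 kb without UV (SD, n = 3), so its changes after UV cannot be compared between genotypes. VIM rose in ASH1L-/- cells (0.24 ± 0.08 kb, adjusted p = 0.037), and PRRX1 (0.26 ± 0.08 kb, adjusted p = 0.022) and TWIST2 (0.22 ± 0.07 kb, adjusted p = 0.029) rose in WT cells.

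XPC was immunoprecipitated in separate libraries and was not used to choose the genes, so it was tested. It showed no call at the members' promoters. In limma fits of 6 contrasts over 18991 promoters, which all 9 members passed, 0 promoters had an adjusted p of 0.05 or less (0% called), although 293 to 1483 per contrast had an unadjusted p under 0.05. The lowest adjusted p of a member was 0.79. Of the 54 tests of members 4 had an unadjusted p under 0.05, and they concerned SIGLEC11, SIGLEC5, SIGLEC9 and SIGLEC12. The members' differences ran from -0.85 to 0.95 kb, with standard errors of 0.24 to 0.74 kb. None was called, so these lists could not resolve differences of that size or smaller. SIGLEC12, for example, was covered over 0.598 ± 0.576 kb after UV and 1.26 ± 0.547 kb without UV in ASH1L-/- cells (SD, n = 6 and 3), and over 0.161 ± 0.289 kb after UV and 0.363 ± 0.483 kb without UV in WT cells (n = 6 and 4), and SIGLEC6 over 0.373 ± 0.682 and 0.590 ± 0.630 kb in ASH1L-/- cells and 0.317 ± 0.437 and 0.252 ± 0.376 kb in WT cells, in the same order.

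Over the whole span XPC peaks covered more in ASH1L-/- than in WT cells. ASH1L-/- libraries had 119, 91.2 and 64.4 kb without UV, 86.1, 75.5 and 46.4 kb at 1 h, and 46.7, 196 and 82.2 kb at 3 h. WT libraries had 25.7, 26.8, 49.1 and 37.5 kb without UV, 21.9, 21.9 and 36.0 kb at 1 h, and 50.1, 76.4 and 35.5 kb at 3 h. Without UV and at 1 h every ASH1L-/- library lay above every WT library, and at 3 h the groups overlapped. ASH1L-/- exceeded WT by 51.4 kb on average over times (two-sided exact permutation test, genotypes exchanged within each time, 14000 arrangements, p = 0.0011, adjusted p = 0.0032 over 3 tests). UV did not shift the span detectably, with -2.71 kb in ASH1L-/- cells (two-sided exact permutation test, p = 0.98, 84 arrangements) and 5.50 kb in WT cells (p = 0.69, 210 arrangements).

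This genotype difference was not confined to the siglec span, and was seen over the 5 Mb bin around it. The log2 ratio of ASH1L-/- over WT was 1.24 for the span and 1.19 for the whole 5 Mb bin that holds it, whereas the median over the 500 kb bins was -0.04 over the genome and -0.01 over chromosome 19, with a range of -1.366 to 1.295 on that chromosome. A log2 ratio at or above that of the span occurred in 1.40% of 5718 bins of the genome and in 8.04% of the bins of chromosome 19. By the same exact test, ASH1L-/- was higher than WT with an unadjusted p under 0.05 in 9.14% of 5719 bins. With peaks of −log10 p of at least 2 the difference was 2.32 kb and its call was lost (exact permutation test, p = 0.11). The number of DNA copies of this stretch in each line was not tested, and 17 of the 19 XPC lists held exactly 500000 peaks, so the length called in one place depends on what was called elsewhere.

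**Figure D5:**
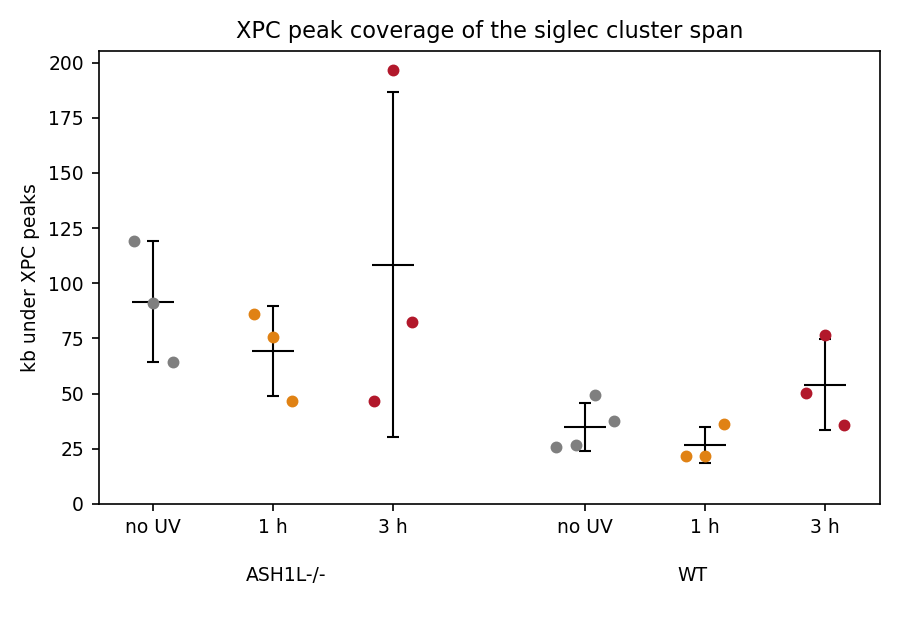
Covered length of the siglec span under XPC peaks (y axis, kb) by time in ASH1L-/- cells and in WT cells (x axis). Points are libraries, with mean and SD (n = 3, and 4 in WT cells without UV); ASH1L-/- libraries lie at 46.4 to 196 kb and WT libraries at 21.9 to 76.4 kb.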

How the data were processed

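Chromatin immunoprecipitation of H3K4me3 (18 libraries) and XPC (19 libraries) was analysed from peak lists, which the authors made from each library by itself. The submitters' processing notes name Trim Galore 0.6.5, BWA 0.7.17-r1188 and the hg38 build, then Picard, SAMtools 1.7 and bedtools 2.29.2 as filters, and MACS2 2.2.7.1 as peak caller. H3K4me3 peaks were narrow, with input as control, and XPC peaks broad, with XPC pulled down from XPC-/- cells as control. In each list the deposited columns used were the start and end positions (other), the fold enrichment (the ratio of pile-up to control at the summit), and −log10 p and −log10 q, all as the authors' caller gave them for 1 library. The 18 inputs and 6 libraries of XPC-deficient cells entered only as those controls.

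Overlapping peaks were merged and the covered length was taken in promoter windows of 2 kb on each side of the start site (GENCODE 44, MANE transcript for 19016 genes and canonical transcript for 954) and in the cluster span, the stretch of listed genes less than 500 kb apart. Groups came from the labels, and libraries of 1 group are numbered there as biological replicates. Covered lengths in promoters with a peak in at least 3 libraries were fitted with limma 3.58.1 (R 4.3.3; 1 mean per group, trend, robust) and p-values were adjusted by Benjamini and Hochberg at 0.05. Contrasts were the mean of 1 h and 3 h minus no UV in each genotype, the difference of both, and ASH1L-/- minus WT at each time. For XPC spans a two-sided exact permutation test was used, with both irradiated times pooled because 3 against 3 libraries cannot reach a small p. The fit was tested on simulated data. Summit and control fragments were solved from fold enrichment and −log10 p of H3K4me3 peaks, with whole numbers recovered at an error of at most 1.3e-04 in −log10 p for the members' peaks. XPC depth was not recovered. Other steps used Python 3.11.15 with numpy 2.4.6, pandas 2.3.3 and scipy 1.17.1. Sequences came from RefSeq.

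The members and lists were chosen with earlier results of these data known. The text names all 9 members, list genes that passed (at most 3 per list and contrast), the other genes of the span and the 5 promoters most like the members. Alternatives were stricter peaks, an equal number of peaks, scaled lengths, other windows, all promoters, a replicate block and leaving out each library. XPC without its 2 shorter lists was added after the data were seen.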

Additional observations from a re-analysis of the deposited data

Results flagged for a closer look

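The change of H3K4me3 after UV went opposite ways in the 2 genotypes at 2 of the members' promoters, SIGLEC6 and SIGLEC12. There every irradiated WT library lay above the unirradiated WT mean, and every irradiated ASH1L-/- library below the unirradiated ASH1L-/- mean. Comparing each library with a mean is looser than asking that groups do not overlap, and its share over all promoters is not given. In the stricter form both directions held at 8 of 14745 promoters (0.0543%), SIGLEC6 among them but not SIGLEC12. The change in ASH1L-/- cells minus that in WT cells was -2.28 kb at SIGLEC6 and -2.03 kb at SIGLEC12. The genes were chosen on these values, so no test of the difference is given, and the difference was not tested in other libraries.

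In unirradiated WT cells, the group of 4 XPC libraries, 1 library stood far from the other 3 at 5 of the 10 places looked at (9 promoters and the span). A chance rate of about 1 in 20 is usual for such a mark, but it does not hold here, because many lengths are exactly 0 and any value beside 3 libraries at 0 is marked. The values were 0.874 kb at SIGLEC9 against 0 kb in the other 3, 1.62 kb at SIGLEC7 against at most 0.263 kb, 1.27 kb at SIGLEC10 against at most 0.134 kb, 0.163 kb at SIGLEC5 against 0 kb, and 0 kb at SIGLEC14 against 0.519 to 0.625 kb. The odd library was not the same in each: it was the second at SIGLEC7, SIGLEC5 and SIGLEC14, the third at SIGLEC9 and the fourth at SIGLEC10.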

How the results depend on the processing

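Peak strength and the amount called limit these results most, and depth differed as well. The siglec peaks had a low fold enrichment, with a median of 2.84 over the control. The mean control under the peaks of the span, divided by the library's background, was higher in ASH1L-/- libraries. This did not hold for each member: at SIGLEC12 the control ranges after UV overlapped. At SIGLEC5 the control under the strongest peaks was 5.94 and 5.48 fragments in ASH1L-/- and 6.39 and 6.72 in WT libraries at 1 h. With peaks of at least 5-fold enrichment, the summed change after UV over the 9 promoters was 0 kb in ASH1L-/- cells (-1.51 kb with all peaks) and 0.26 kb in WT cells (3.33 kb), a difference of -0.26 kb (-4.84 kb), and the change of the span turned to 3.93 kb in ASH1L-/- cells (-4.07 kb) and was 7.27 kb in WT cells (25.8 kb), a difference of -3.33 kb (-29.8 kb). In windows of 1 kb on each side the promoter sums were -0.41 kb in ASH1L-/- and 2.09 kb in WT cells, a difference of -2.50 kb. Scaling to equal covered totals, which turned the median change over all promoters to -0.61 kb in WT and -0.14 kb in ASH1L-/- cells, gave 10.5 kb for the span in WT cells, and an equal number of peaks gave a span difference of -17.9 kb. The small change of the span in ASH1L-/- cells was -10.5 kb with scaled lengths, -2.29 kb with an equal number of peaks, and -6.72 to -0.37 kb without each library in turn. The sums over the promoters were -1.78 to -1.20 kb in ASH1L-/- and 2.91 to 3.86 kb in WT cells without each library.

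Of the list genes, 17 rose in WT and 11 in ASH1L-/- cells. Scaled lengths left 7 in WT and 1 in ASH1L-/- cells, 5-fold peaks left 1 in WT and 6 in ASH1L-/- cells, and windows of 1 kb left 6 in ASH1L-/- cells. Leaving out 1 library gave 6 to 27 in WT cells (27 without the third unirradiated WT library, and 6 to 10 without the first or second unirradiated or the third WT library at 3 h) and 2 to 14 in ASH1L-/- cells (2 to 7 without any unirradiated ASH1L-/- library or the first or second at 1 h or 3 h). NANS (-0.34 kb) and NEU1 (-0.18 kb) in WT cells turned with scaled lengths, with adjusted p of 0.26 and 0.62. With a replicate block 20 rose in WT and 13 in ASH1L-/- cells. Deviations of same-numbered libraries from their group means had r of -0.11 to 0.29 for H3K4me3 (median 0.095, 18 of 45 over 0.1). For XPC r was -0.21 to 0.44 (median 0.03, 8 of 45 over 0.1). Differently numbered libraries were not compared in this way, so whether the numbers pair the libraries is not settled. With a replicate block, the XPC fit over all promoters called 25 lower after UV in WT cells. It called 7 lower in ASH1L-/- than in WT cells without UV, against 0 for both contrasts without the block. At the XPC promoters of the members there were 0 calls for the UV contrasts under all alternatives, the replicate block included. A −log10 q of at least 1.3 left 1 promoter for XPC and was not run.

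For XPC over the span, the difference of ASH1L-/- minus WT was 36.7 to 61.6 kb without each library in turn, and 2.32 kb with −log10 p of at least 2. The changes after UV, which passed no test, changed sign: in WT cells with −log10 p of at least 2 (-1.71 kb) and between -1.72 and 10.3 kb without each library, and in ASH1L-/- cells with scaled lengths (5.43 kb), without the 2 shorter lists (5.73 kb), and between -24.2 and 11.1 kb without each library.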
